A study of Homo sapiens with 8 samples.

Results

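The response of BEAS-2b cells to house dust mite (HDM) extract under a control siRNA was followed in 4 of the 8 RNA sequencing libraries of the study. BEAS-2b is a human bronchial epithelial cell line immortalised with a virus, and HDM extract is a soluble preparation of a common indoor allergen source. The libraries were 3 from cells given HDM extract and 1 from cells given phosphate-buffered saline (PBS). All 4 came from cells that carried control siRNA, were switched to BEBM, a growth medium without the usual supplements, 24 h before stimulation and were lysed for total RNA 24 h after it. The other 4 libraries, 1 PBS and 3 HDM from cells given siRNA against LY96, enter the test of a difference in response near the end. Their PBS library is also given for some genes where it differed from the control PBS library. With 1 PBS library for each siRNA, an effect of the siRNA and a difference between libraries cannot be told apart. The comparison covered every gene that averaged 1 FPKM or more across the 4 control siRNA libraries, which was 12629 of the 26485 genes in the tables. FPKM scales sequenced fragments to transcript length and library size, so levels of different genes can be set side by side. With a single PBS library, the spread came from the HDM triplicate alone, and the test takes PBS libraries to vary as HDM libraries do. The labels do not say whether the 3 HDM libraries came from separate cultures, and the p-values measure only the spread between them, which may be technical. Neither the HDM dose nor the siRNA sequences are given in the sources used here.

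HDM extract carries proteases, lipopolysaccharide, glucans and chitin, which airway epithelial cells sense through Toll-like receptors, lectins and protease-activated receptors. Many of these receptors act through NF-kB, a family of transcription factors held in the cytoplasm by IkB proteins. When it is released, NF-kB drives genes for chemokines that call in neutrophils and monocytes, for acute-phase proteins, and for its own inhibitors. MD-2, the product of LY96, is the part of the TLR4 receptor that binds lipopolysaccharide.

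The 4 libraries were close to each other. FPKM totals ran from 335717 to 337857, log2 values correlated at r = 0.988 to 0.994 between library pairs over the tested genes, which are not independent replicates, and read depth is unknown. Ribosomal RNA took 0.770% of the FPKM total in the PBS library and 0.824%, 0.475% and 0.565% in HDM replicates 1, 2 and 3. Epithelial identity was checked with marker genes. All 8 simple epithelial markers (KRT8, KRT18, KRT7, KRT19, EPCAM, CDH1, ELF3 and GRHL2) and 8 of 9 basal cell markers reached the tested level. Of the markers of other cell types, 4 of 11 for leukocytes (PTPRC and CD3E among them), 2 of 7 for endothelium (PECAM1 and ERG), 1 of 6 for ciliated cells (FOXJ1), 4 of 6 for secretory cells (SCGB1A1, SCGB3A1, MUC5AC and BPIFB1) and 2 of 9 for fibroblasts (DCN and LUM) were listed at 0 in all 4 libraries. Members that reached the tested level were CD68 of the leukocyte list (2.57 FPKM with PBS, 3.43, 2.79 and 3.53 FPKM with HDM), TUBB4B, a tubulin gene, of the ciliated list (398 FPKM with PBS, 383, 383 and 388 FPKM with HDM) and PDGFRB, THY1 and COL1A1 of the fibroblast list. LY96 was also listed at 0 in all 4, so its expression in these cells could not be checked. At the edge of the test, GLUD1P3 was kept at a mean of 1.001 FPKM and SLC9A7 was left out at 0.998.

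HDM extract raised a set of inflammatory genes in these cells and lowered a smaller set that included genes of the contractile cytoskeleton and of TGF-beta signalling. In limma's moderated test with Benjamini-Hochberg adjustment, 185 of 12629 genes (1.46%) rose and 100 (0.792%) fell at an adjusted p below 0.05, together 2.26% of the genes tested. Rises were also larger, with 42 of 185 past 2-fold against 6 of 100 falls. The median log2 difference was 0.54 among the rises, -0.44 among the falls and 0.0057 over all genes tested. Differences are given throughout as HDM minus PBS on the log2(FPKM + 1) scale, on which changes of low genes are understated. As a share of the FPKM total, the genes that rose went from 2.01% with PBS to 3.10%, 3.07% and 3.07% with HDM, and those that fell from 2.28% to 1.88%, 1.88% and 1.87%. For all 285 genes the 3 HDM libraries lay on one side of the PBS library, which was also true of 33.7% (above) and 29.3% (below) of all genes tested. The counts depended on the libraries and on the test, with 146, 102 and 121 rises and 79, 45 and 53 falls without HDM replicate 1, 2 or 3, 33 rises and 15 falls when low genes were not filtered, and 63 rises and 13 falls without limma's trend and robust steps. Among the 285 genes, 88 that rose and 27 that fell passed in each of the 3 fits that left out an HDM library.

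**Figure D1:**
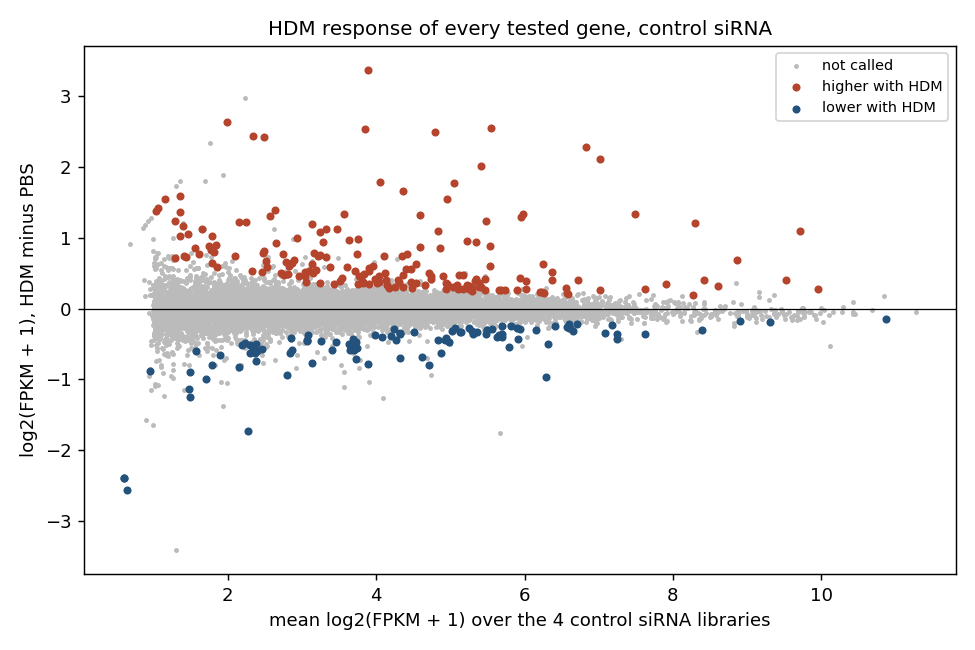
Difference between HDM and PBS (log2(FPKM + 1), y axis) against the mean level over the 4 control siRNA libraries (x axis, same scale) for every tested gene, 1 point a gene. The 185 rises (red) reach 3.37 for CXCL1, while the falls (blue) of genes averaging 5 FPKM or more end at -0.97 for TAGLN; grey points did not pass the test.

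Of the receptors that could sense HDM extract, those that were tested did not pass in either direction. None of 7 tested pattern recognition receptor and co-receptor genes rose or fell (median log2 0.12). Below the tested level were 10 of the 17 genes in this list and 2 of 4 protease-activated receptor genes, so no result is given for them. TLR4, the lipopolysaccharide receptor, was at 4.55 FPKM with PBS and at 4.19, 3.84 and 3.96 FPKM in HDM replicates 1, 2 and 3 (adjusted p = 0.462). CD14, which passes lipopolysaccharide to TLR4 and MD-2, was at 3.53 FPKM and then 5.39, 4.90 and 4.72 FPKM, with every HDM library above PBS (log2 0.40 ± 0.095 SE, adjusted p = 0.0996). TLR2, a receptor of bacterial lipoproteins, was below the tested level at 0.455 FPKM with PBS and 1.11, 1.20 and 1.08 FPKM with HDM. Of the protease-activated receptors, F2RL1, which trypsin-like proteases cleave, was the most abundant at 22.03 FPKM with PBS and 20.4, 19.6 and 22.4 FPKM with HDM, and its groups overlapped, as did those of the thrombin receptor gene F2R. Downstream, 2 of 20 adaptor and kinase genes rose and none fell, against 1.46% of all genes tested that rose. IKBKE, an IkB kinase of the innate immune response, went from 2.69 to 5.36 ± 0.468 FPKM (SD, n = 3; log2 0.78 ± 0.10 SE, adjusted p = 0.0159), but had adjusted p = 0.0538 without HDM replicate 2. MAP3K8, a kinase that links NF-kB to MAP kinases, went from 4.16 to 7.34 ± 0.163 FPKM (log2 0.69, adjusted p = 0.006).

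The NF-kB system itself moved upward. Of 11 genes for NF-kB subunits and IkB proteins 8 rose and none fell, with a median log2 difference of 0.74, against 1.46% of all genes tested that rose. NFKBIA, the gene of the main cytoplasmic inhibitor, was at 22.5 FPKM with PBS and 52.9, 57.4 and 53.1 FPKM with HDM (log2 1.24 ± 0.059 SE, adjusted p = 0.000158). NFKBIZ, a nuclear IkB that helps switch on secondary response genes, was at 2.003 FPKM and then 6.66, 6.98 and 7.11 FPKM (log2 1.40 ± 0.081 SE, adjusted p = 0.00046). RELB, the activating subunit of the non-canonical pathway, was at 5.15 FPKM and then 12.8, 12.6 and 12.1 FPKM (log2 1.13). In none of these genes did an HDM library come near the PBS level. The precursor genes NFKB1 (log2 0.78) and NFKB2 (0.74), BCL3 (0.74), NFKBIE (0.75) and NFKBIB (0.35) also rose. NFKBIB had adjusted p = 0.0902, 0.137 and 0.0613 without HDM replicate 1, 2 or 3. RELA, the activating subunit of the canonical pathway, did not pass (log2 0.12 ± 0.053 SE, adjusted p = 0.326), and neither did REL or NFKBID.

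Of 13 genes listed as NF-kB feedback regulators 6 rose and none fell, against 1.46% of all genes tested that rose. The median log2 difference of the list was 0.25. TNFAIP2, a target of the pathway rather than a known inhibitor, was at 7.68 FPKM with PBS and 26.1, 26.9 and 26.7 FPKM with HDM (log2 1.67 ± 0.053 SE, adjusted p = 1.85e-05). ZC3H12A, a ribonuclease that degrades cytokine mRNAs, was at 4.89 FPKM and then 13.8, 13.8 and 14.1 FPKM (log2 1.34 ± 0.061 SE, adjusted p = 0.000125). TNFAIP3, the gene of the ubiquitin-editing enzyme A20, was at 2.89 FPKM and then 6.71, 5.79 and 6.63 FPKM (log2 0.92 ± 0.099 SE, adjusted p = 0.00619). BIRC3 (log2 1.02), TNIP1 (0.63) and TRAF3 (0.48) were the other members that rose, of which TRAF3 did not pass without any single HDM library (adjusted p = 0.0532 to 0.0924). The related deubiquitinase gene CYLD did not pass (log2 0.21, adjusted p = 0.224).

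Neutrophil-attracting chemokines were among the largest rises. Of 10 tested CXC and CX3C chemokine genes 7 rose and none fell, against 1.46% and 0.792% of all genes tested. The median log2 difference of the list was 1.38. CXCL1, a ligand of the neutrophil receptor CXCR2, was at 1.56 FPKM with PBS and at 24.4, 25.6 and 26.7 FPKM in HDM replicates 1, 2 and 3 (log2 3.37 ± 0.068 SE, adjusted p = 6.66e-06). CXCL8, the gene of interleukin-8, was at 0.590 FPKM and then 7.52, 7.81 and 7.26 FPKM (log2 2.42 ± 0.085 SE, adjusted p = 2.76e-05). CXCL2 was at 0.416 FPKM and then 7.95, 5.51 and 6.89 FPKM, the widest spread of the 3 (log2 2.45 ± 0.17 SE, adjusted p = 0.00223). In each of these genes every HDM library was far above the PBS library. The related ligand genes CXCL3, CXCL5 and CXCL6 stayed low, at 2.37 ± 0.231, 2.25 ± 0.265 and 1.61 ± 0.0748 FPKM with HDM (SD, n = 3 each), against 0.113 and 0.258 FPKM for the first pair with PBS and a listed 0 for CXCL6. CXCL16, a membrane-bound chemokine, rose by 0.42 on the log2 scale, with adjusted p = 0.0538 without HDM replicate 2. The interferon-induced T cell chemokine CXCL10 did not pass, at 0.608 FPKM with PBS and 1.46, 2.005 and 1.64 FPKM with HDM (adjusted p = 0.0667). CXCL14, a chemokine made constitutively by epithelia, was at 7.84 FPKM and then 8.07, 7.41 and 7.19 FPKM, and its groups overlapped.

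The 6 CXC genes that rose most lie in a cluster on chromosome 4, and their promoters are shown because each holds an NF-kB-type motif close to the start of transcription. The 120 bases before the start site listed by RefSeq (GRCh38.p14) are printed 5′ to 3′ on the strand of the gene, with the match to GGANNTTCC, searched on both strands, in capitals. The genes and the motif were chosen after the values had been seen.
CXCL1, chr4:73869273-73869392, plus strand: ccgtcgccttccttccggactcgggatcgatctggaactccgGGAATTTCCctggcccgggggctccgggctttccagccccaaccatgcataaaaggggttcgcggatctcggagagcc
CXCL2, chr4:74099196-74099315, minus strand: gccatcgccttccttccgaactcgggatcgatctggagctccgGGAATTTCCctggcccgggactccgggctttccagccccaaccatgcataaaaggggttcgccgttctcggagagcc
CXCL3, chr4:74038690-74038809, minus strand: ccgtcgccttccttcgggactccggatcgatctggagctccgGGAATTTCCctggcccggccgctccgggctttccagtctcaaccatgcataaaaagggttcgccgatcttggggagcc
CXCL5, chr4:73998678-73998797, minus strand: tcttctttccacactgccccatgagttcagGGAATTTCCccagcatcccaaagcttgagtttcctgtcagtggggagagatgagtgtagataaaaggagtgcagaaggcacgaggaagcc
CXCL6, chr4:73836558-73836677, plus strand: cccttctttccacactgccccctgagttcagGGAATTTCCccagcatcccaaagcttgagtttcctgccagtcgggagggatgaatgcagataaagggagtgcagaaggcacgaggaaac
CXCL8, chr4:73740449-73740568, plus strand: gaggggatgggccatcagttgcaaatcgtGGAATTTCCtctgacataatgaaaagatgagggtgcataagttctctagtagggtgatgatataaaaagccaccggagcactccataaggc

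All 6 windows hold the same 9 letters, GGAATTTCC, beginning 78, 77, 78, 90, 89 and 91 bases before the start in the order printed. Laid on the motif, the windows of CXCL1 and CXCL3 were identical at 96 of 107 positions and those of CXCL5 and CXCL6 at 99 of 107. The matches within these pairs are therefore not independent. CXCL2 was identical to CXCL1 at 69 and to CXCL3 at 64 positions, counted without gaps. Past the motif its printed window is offset from that of CXCL1 and then matches it closely, so its match is not independent either. A match within 250 bases before the start was found in 1350 of 35116 listed promoters (3.84%). CXCL10, which did not pass the test, has a match 176 bases before its start, whereas CCL20, which rose, and CXCL14, which did not pass, have none. Other motifs searched on both strands were TGANTCA (6.57% of promoters), the interferon-stimulated response element (3.02%) and the CArG box (1.16%), the last pair given by name; their matches are not described. A listed promoter was found for 140 of the 185 genes that rose (75.7%) and for 74 of the 100 that fell (74.0%). With fewer than 80% of genes covered, a comparison of motif shares between these groups is void. A match is a description of letters, not of binding.

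The same search is shown for the NF-kB inhibitor gene NFKBIA and the cytokine gene IL32, at the first start site listed for each, because both rose and carry more than 1 match.
NFKBIA, chr14:35404750-35404869, minus strand: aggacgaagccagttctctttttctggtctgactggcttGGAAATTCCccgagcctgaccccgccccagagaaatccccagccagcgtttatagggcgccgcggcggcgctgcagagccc
IL32, chr16:3065283-3065402, plus strand: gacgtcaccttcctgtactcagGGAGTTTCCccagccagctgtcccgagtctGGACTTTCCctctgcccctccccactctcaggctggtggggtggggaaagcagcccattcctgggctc
The window of NFKBIA holds the match GGAAATTCC at 81 bases before the start, and a second match, GGACTTTCC, lies outside it at 242 bases. IL32 holds 2 matches in its window, at 98 and 68 bases, and none before the other start site listed for it. This pair was picked for its matches. BCL3, BIRC3, TNFAIP2, ZC3H12A and SOD2, which also rose, have no match before any listed start, including the 4 listed for SOD2.

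**Figure D2:**
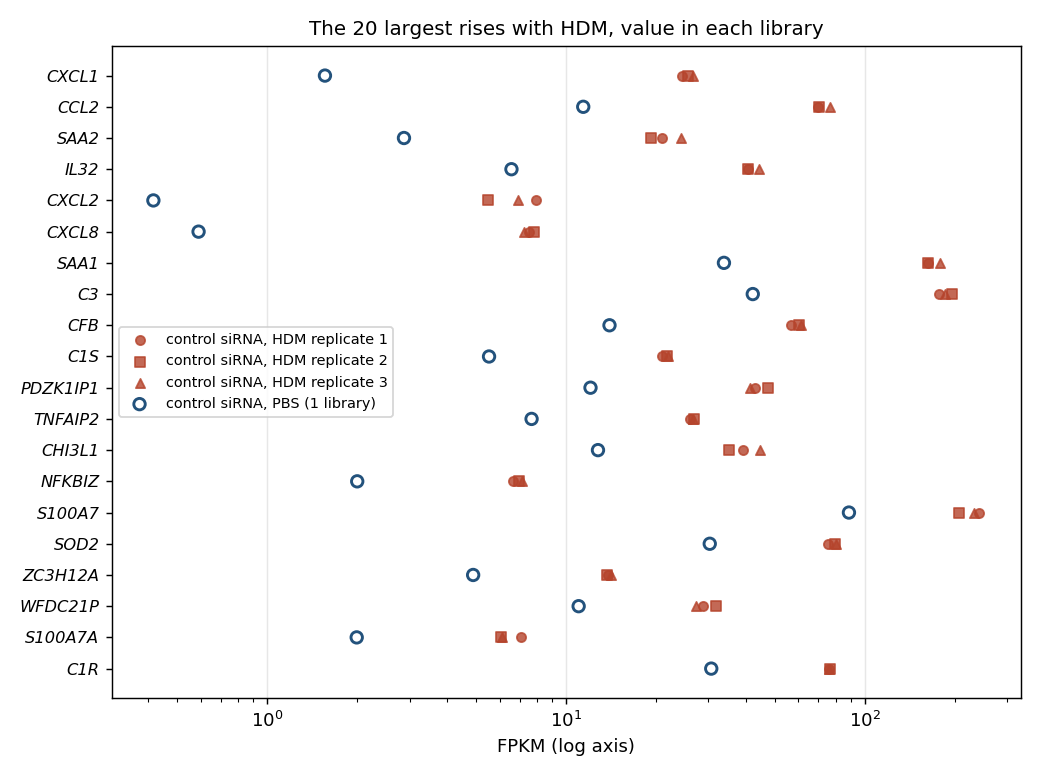
FPKM (x axis, log scale) of the 20 largest rises among genes averaging 5 FPKM or more, 1 row a gene, with the single PBS library as an open circle and HDM replicates 1, 2 and 3 as filled circle, square and triangle. In all 20 rows the 3 HDM points lie close together and above the PBS point, from 1.56 FPKM against 24.4 or more for CXCL1 to 30.7 against 75.9 or more for C1R.

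Among CC chemokines 2 of 3 tested genes rose, against 1.46% of all genes tested. CCL2, which attracts monocytes, was the most abundant chemokine transcript per length, at 11.4 FPKM with PBS and 69.8, 70.6 and 76.4 FPKM with HDM (6.32 times the PBS level, log2 2.56 ± 0.061 SE, adjusted p = 1.04e-05). CCL20, a ligand for dendritic cells and Th17 cells, was listed at 0 with PBS and at 1.71, 1.89 and 1.45 FPKM with HDM (adjusted p = 0.00607). CCL28, a mucosal chemokine, did not pass (log2 0.081). The eosinophil chemokine genes CCL11, CCL24 and CCL26 and the Th2 cell chemokine gene CCL17 were listed at 0 in all 4 libraries.

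Cytokine genes moved less uniformly. IL32, an epithelial inflammatory cytokine gene, was at 6.58 FPKM with PBS and 40.6, 40.6 and 44.1 FPKM with HDM (6.35 times, log2 2.50 ± 0.064 SE, adjusted p = 1.07e-05). CSF1, the macrophage colony-stimulating factor gene, was at 17.6 FPKM and then 32.2, 34.9 and 30.9 FPKM (log2 0.85 ± 0.072 SE, adjusted p = 0.0023). IL6 stayed low, at 0.587 FPKM and then 1.95, 2.36 and 2.62 FPKM, with no overlap (log2 1.06 ± 0.15 SE, adjusted p = 0.0184, 0.0657 without HDM replicate 2). Of 10 tested genes of the interleukin-6 family and its receptors, IL6, OSMR (the oncostatin M receptor, log2 0.50) and STAT3 (their shared transcription factor, log2 0.37) rose and none fell. In the interleukin-1 family none of 7 genes rose and 2 fell, while 1.46% and 0.792% of all genes tested did. The 2 were IL1RN and IL18, at 3.81 and 27.9 FPKM in the PBS library with LY96 siRNA. IL1RN, the gene of the interleukin-1 receptor antagonist, was at 6.14 FPKM with PBS and 3.71, 3.48 and 3.66 FPKM with HDM (log2 -0.63 ± 0.086 SE, adjusted p = 0.0176). IL18, a constitutive epithelial cytokine gene, was at 34.9 FPKM and then 24.8, 24.5 and 26.9 FPKM (log2 -0.45 ± 0.065 SE, adjusted p = 0.0219). Both falls were fragile: none of the 7 genes passed without HDM replicate 2 (adjusted p = 0.0592 and 0.0592), and IL18 had 0.0506 without replicate 1. IL1A and IL1B were higher in every HDM library than with PBS but did not pass (log2 0.33 and 0.39, adjusted p = 0.366 and 0.253). Of the epithelial alarmins, IL33 was listed at 0 in all 4 libraries, and TSLP (up to 0.262 FPKM) and CSF2 (up to 0.295 FPKM) were below the tested level.

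Acute-phase and antimicrobial proteins were the group with the highest share of rises, 9 of 10 tested genes with none falling. Of all genes tested, 1.46% rose. The median log2 difference of the list was 1.16. SAA1, a serum amyloid A gene, was at 33.8 FPKM with PBS and 163, 164 and 179 FPKM with HDM (4.98 times, log2 2.28 ± 0.060 SE, adjusted p = 1.21e-05). SAA2, its neighbour and close copy, was at 2.87 FPKM and then 21.03, 19.3 and 24.2 FPKM (log2 2.53 ± 0.12 SE, adjusted p = 0.000487); reads can be divided between the copies. S100A9, which with S100A8 forms the zinc- and calcium-binding protein calprotectin, was the most abundant of these transcripts per length, followed by PI3. S100A8 was at 167 FPKM with PBS and 403, 374 and 385 FPKM with HDM, and S100A9 at 474 FPKM and then 1082, 993 and 986 FPKM (log2 1.21 and 1.10). S100A7, psoriasin, was at 88.6 FPKM and then 242, 207 and 231 FPKM (log2 1.34 ± 0.089 SE, adjusted p = 0.0043), and its near-copy S100A7A rose by 1.31. LCN2, which sequesters bacterial siderophores, was at 7.13 FPKM and then 15.8, 13.9 and 15.5 FPKM (log2 0.98, adjusted p = 0.0022). PI3, an elastase inhibitor gene, was at 324 FPKM and then 542, 486 and 537 FPKM (log2 0.68). SLPI, another elastase inhibitor gene, rose by 0.27, with adjusted p = 0.0785 and 0.102 without HDM replicate 1 or 3. CHI3L1, a chitinase-like protein gene, was at 12.8 FPKM and then 39.3, 35.2 and 44.7 FPKM (log2 1.55 ± 0.13 SE, adjusted p = 0.0141, 0.0949 without HDM replicate 1). S100A12 was the member that did not pass (log2 0.42, adjusted p = 0.327).

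Complement genes of the classical and alternative pathways rose, 5 of 9 tested components with none falling, against 1.46% of all genes tested that rose. C3, the central component, was at 42.2 FPKM with PBS and 177, 197 and 186 FPKM with HDM (4.42 times, log2 2.12 ± 0.059 SE, adjusted p = 1.21e-05). CFB, which forms the alternative pathway convertase with C3, was at 13.999 FPKM and then 56.6, 60.4 and 61.4 FPKM (log2 2.01 ± 0.058 SE, adjusted p = 1.21e-05). The classical pathway proteases C1S and C1R, neighbours on chromosome 12, were at 5.53 and 30.7 FPKM with PBS and at 21.6 ± 0.533 and 76.3 ± 0.462 FPKM with HDM (SD, n = 3; log2 1.79 and 1.29). C1RL rose by 0.58. C4B did not pass on its own (log2 0.17), but the near-identical copies C4A, C4B and C4B_2 summed to 18.7 FPKM with PBS and 27.6 ± 0.324 FPKM with HDM. The values of the inhibitor gene SERPING1 overlapped between groups, and none of the 3 tested membrane regulators (CD46, CD55 and CD59) passed.

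**Figure D3:**
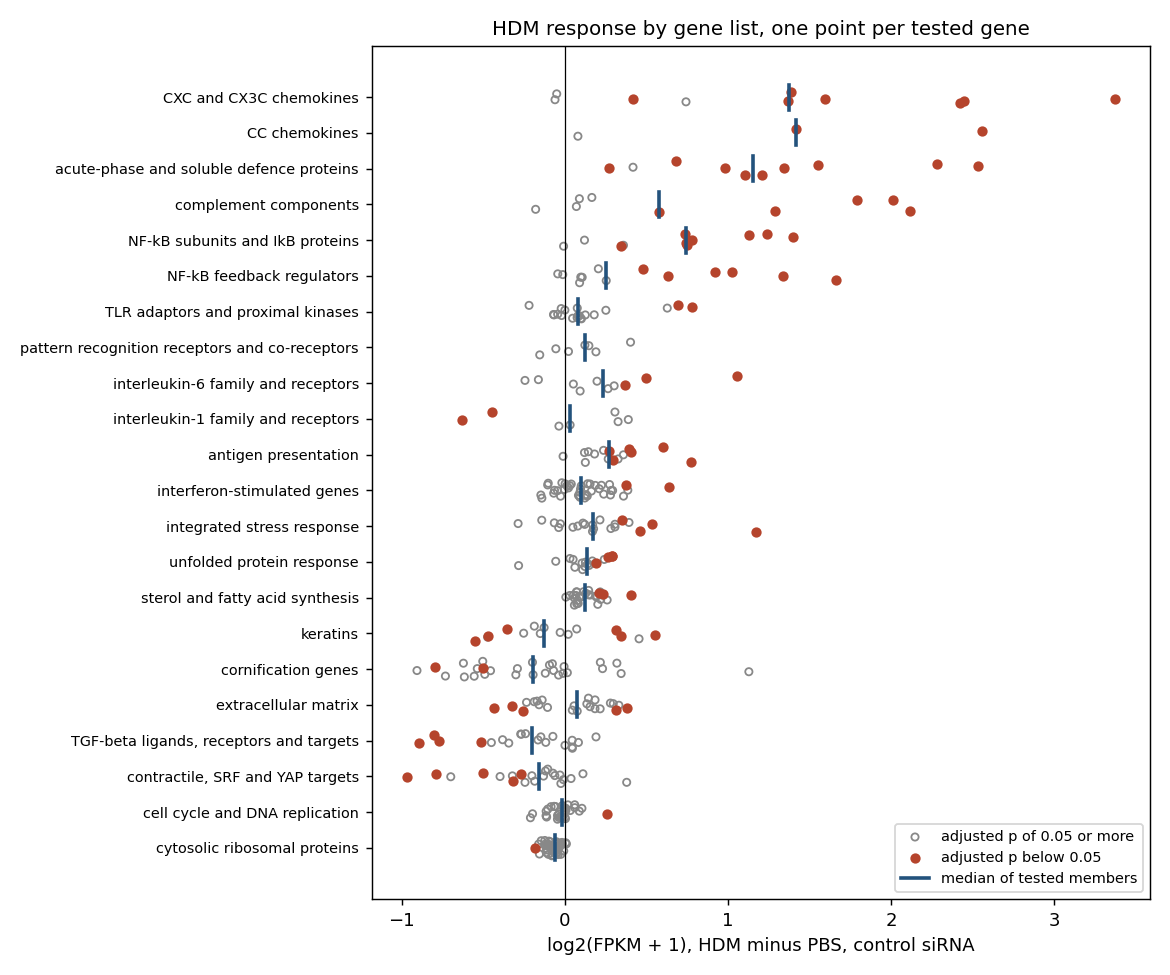
HDM minus PBS (log2(FPKM + 1), x axis) for each tested member of 22 gene lists, 1 point a gene, with filled red points for genes at an adjusted p below 0.05 and a blue bar at the median of each list. Chemokine, acute-phase, complement and NF-kB lists lie to the right of 0, with medians between 0.25 and 1.42. Medians of the contractile, TGF-beta, cornification and keratin lists lie to the left at -0.16, -0.20, -0.20 and -0.13, and that of ribosomal protein genes at -0.061.

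Of 40 interferon-stimulated genes 2 rose and none fell, against 1.46% of all genes tested that rose. The median log2 difference was 0.099. In this list 23 of 40 lay above PBS in every HDM library and 2 below, against 33.7% and 29.3% of all genes tested. The members that rose were GBP2, a guanylate-binding GTPase gene (4.21 FPKM with PBS, 7.15, 7.06 and 7.13 FPKM with HDM, log2 0.64), and TRIM22 (log2 0.38, adjusted p = 0.114 and 0.0853 without HDM replicate 2 or 3). IFIT1, MX1 and ISG15, classical type I interferon targets, had log2 differences of -0.018, 0.16 and -0.15. The values of IFIT1 and ISG15 overlapped between groups. Antigen presentation genes had more calls, with 6 of 15 rising, none falling and 14 of 15 above PBS in every HDM library. TAPBP, which loads peptides onto class I molecules, was at 32.9 FPKM and then 50.3, 52.2 and 49.2 FPKM (log2 0.60 ± 0.050 SE, adjusted p = 0.0022). CD74, the invariant chain, was at 13.3 FPKM and then 22.4, 24.7 and 23.5 FPKM (log2 0.78 ± 0.066 SE, adjusted p = 0.0023), while the class II genes it serves (HLA-DRA, HLA-DPA1 and HLA-DPB1) were below the tested level. PSMB10 (log2 0.40), HLA-B (0.40), TAP2 (0.30) and HLA-F (0.27) also rose. Without HDM replicate 3, 3 of the 15 rose, and HLA-B had adjusted p = 0.0606. TAP2 and HLA-F passed in none of the fits that left out an HDM library (adjusted p = 0.0834 to 0.146 and 0.0741 to 0.0984). ICAM1, the epithelial ligand of leukocyte integrins, was at 24.1 FPKM with PBS and 45.7, 46.6 and 48.9 FPKM with HDM (log2 0.94 ± 0.053 SE, adjusted p = 0.000443), whereas ALCAM fell by 0.25 on the log2 scale, with adjusted p = 0.0857 to 0.0973 when single HDM libraries were left out.

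Of the oxidative and protein-folding stress genes SOD2 had the largest log2 difference. SOD2, the mitochondrial manganese superoxide dismutase gene, was at 30.3 FPKM with PBS and 75.2, 79.5 and 80.4 FPKM with HDM (log2 1.34 ± 0.051 SE, adjusted p = 4.34e-05). It was the sole member to rise of 14 tested superoxide and peroxide enzyme genes, and none fell. Among 16 NRF2 targets 1 rose and 2 fell, and the ferritin genes parted, with the heavy chain FTH1 rising (log2 0.28 ± 0.028 SE, adjusted p = 0.00516) and the light chain FTL falling (-0.20 ± 0.031 SE, adjusted p = 0.0301). TXNRD1, thioredoxin reductase, fell by 0.29 on the log2 scale. FTL and TXNRD1 did not pass in any fit that left out an HDM library (adjusted p = 0.0534 to 0.0811 and 0.0583 to 0.0708). MT2A, a metallothionein gene, was at 277 FPKM and then 359, 382 and 360.2 FPKM (log2 0.40, adjusted p = 0.00733). Of all genes tested 1.46% rose and 0.792% fell. Integrated stress response genes had 4 of 21 rising (CHAC1, STC2, PSAT1 and ASNS). Unfolded protein response genes had 4 of 18 rising (HSPA5, HYOU1, PDIA4 and CALR), with none falling in either list. These counts rested on single libraries, being 3, 0 and 1 for the first list and 1, 0 and 1 for the second without HDM replicate 1, 2 or 3. CHAC1, a glutathione-degrading enzyme gene, was at 0.431 FPKM with PBS and 2.93, 2.12 and 1.74 FPKM with HDM (adjusted p = 0.0431, 0.113 without HDM replicate 2). The stress transcription factor genes ATF4 and DDIT3 did not pass (log2 0.17 and 0.12). Of 12 heat shock genes only HSPB1 passed, and it fell from 392 to 318 ± 1.33 FPKM (SD, n = 3; log2 -0.30, adjusted p = 0.00577).

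The largest falls among well-expressed genes included genes of the contractile cytoskeleton, where 5 of 22 tested members fell and none rose, against 0.792% of all genes tested. TAGLN, the actin-binding protein transgelin, was at 129 FPKM with PBS and 69.4, 59.3 and 67.9 FPKM with HDM (log2 -0.97 ± 0.093 SE, adjusted p = 0.0103, 0.0563 without HDM replicate 3). ANKRD1, a target of the mechanosensitive factor YAP, was at 21.3 FPKM and then 11.3, 12.3 and 12.2 FPKM (log2 -0.79 ± 0.069 SE, adjusted p = 0.00264). MYL9, a myosin regulatory light chain, was at 103 FPKM and then 74.3, 70.8 and 72.2 FPKM (log2 -0.50 ± 0.044 SE, adjusted p = 0.00269). TPM1 and CALD1, which coat actin filaments, fell by 0.32 and 0.27 on the log2 scale, CALD1 with adjusted p = 0.0679, 0.0688 and 0.0834 without HDM replicate 1, 2 or 3. The matricellular YAP targets CTGF and CYR61 were lower in every HDM library but did not pass (log2 -0.40 and -0.18, adjusted p = 0.0538 and 0.224). Of 5 smooth muscle markers, CNN1 and MYH11 were below the tested level and DES was listed at 0, while ACTA2 and SMTN were tested and lay above PBS in every HDM library without passing. ACTA2, smooth muscle actin, was at 2.53 FPKM with PBS and 3.34, 3.83 and 3.61 FPKM with HDM (log2 0.38, adjusted p = 0.135), and SMTN differed by 0.073. The 9 fibroblast markers, of which DCN and LUM were listed at 0, summed to 35.1 FPKM with PBS and 28.4 to 30.6 FPKM with HDM. Among them PDGFRB fell, THY1 lay above PBS in every HDM library and COL1A1 below it (log2 0.10 and -0.14, not passing), and their part in these falls was not tested.

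Genes of TGF-beta signalling fell in 4 of 20 tested members and rose in none, against 0.792% and 1.46% of all genes tested. FSTL3, a secreted inhibitor of activins, was at 12.05 FPKM with PBS and 6.62, 6.95 and 6.40 FPKM with HDM (log2 -0.77 ± 0.074 SE, adjusted p = 0.0043). PMEPA1 and SKIL, feedback inhibitors of the pathway, fell by 0.80 and 0.52 on the log2 scale, and SKIL had adjusted p = 0.0898 to 0.0973 when single HDM libraries were left out. Without HDM replicate 3, 2 of the 20 fell, and PMEPA1 had adjusted p = 0.0901 and 0.0506 without replicate 2 or 3. The ligand and receptor genes TGFB1, TGFB2, TGFBR1 and TGFBR2 did not pass (log2 -0.072, -0.12, 0.046 and 0.0015). In the extracellular matrix 2 of 23 genes rose (FBN1 and LOX) and 3 fell (COL7A1, THBS1 and TGFBI). None of these 5 passed without HDM replicate 2.

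**Figure D4:**
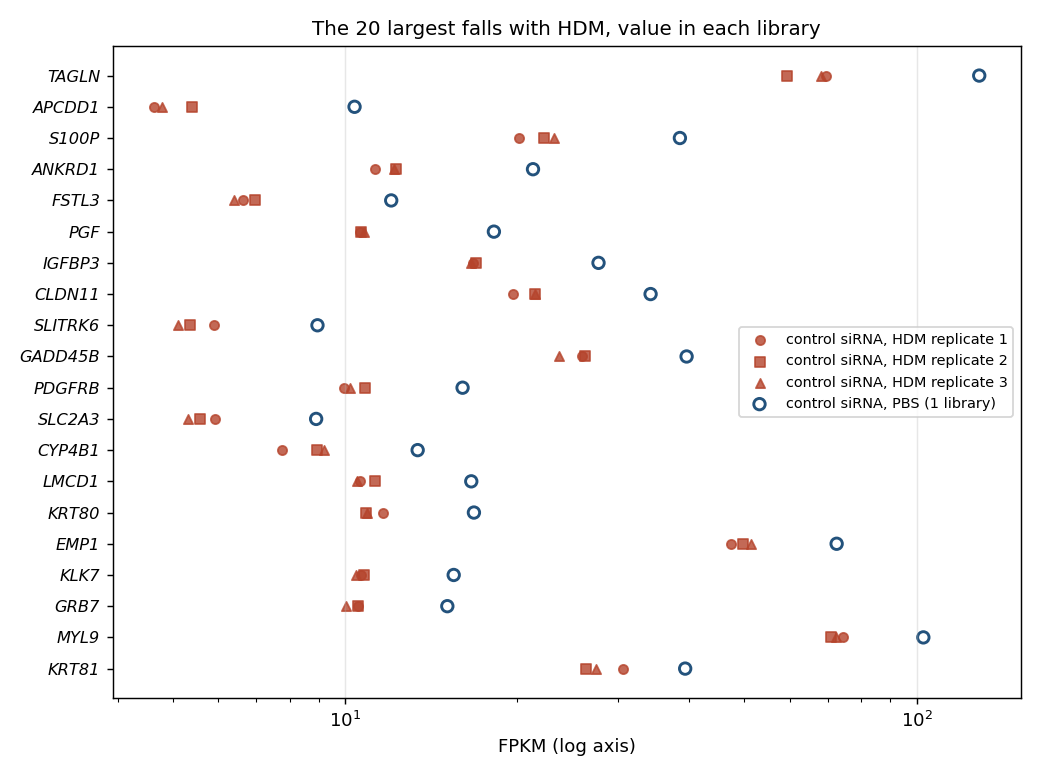
FPKM (x axis, log scale) of the 20 largest falls among genes averaging 5 FPKM or more, 1 row a gene, with the PBS library as an open circle and HDM replicates 1, 2 and 3 as filled circle, square and triangle. Every HDM point lies to the left of the PBS point, and the distances are shorter than among the rises, from 129 against 59.3 to 69.4 FPKM for TAGLN to 39.4 against 26.4 to 30.7 FPKM for KRT81.

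Other falls were spread over growth factor, surface and barrier genes. APCDD1, an inhibitor of Wnt signalling, was at 10.4 FPKM with PBS and 4.63, 5.41 and 4.79 FPKM with HDM (log2 -0.94 ± 0.095 SE, adjusted p = 0.00516). IGFBP3, which binds insulin-like growth factors, was at 27.8 FPKM and then 16.8, 16.9 and 16.6 FPKM (log2 -0.70 ± 0.052 SE, adjusted p = 0.00139). PGF, placental growth factor, was at 18.2 FPKM and then 10.6, 10.7 and 10.8 FPKM (log2 -0.72, adjusted p = 0.00205). In these genes the HDM libraries lay close together, well under the PBS library. CLDN11, a tight junction protein gene, fell by 0.69, the platelet-derived growth factor receptor gene PDGFRB by 0.59, the stress-inducible gene GADD45B by 0.63 and the membrane protein gene EMP1 by 0.54 on the log2 scale. The glucose transporter gene SLC2A3 and the cytochrome gene CYP4B1 fell by 0.59 and 0.59, with adjusted p = 0.0661 and 0.0782 without HDM replicate 2. Among genes with a mean under 5 FPKM, IGFL2 fell from 4.41 to 1.27 ± 0.114 FPKM (SD, n = 3) and SEPT5, a septin gene, from 10.8 to 2.62 ± 0.760 FPKM. In the PBS library with LY96 siRNA IGFL2 was at 1.48 FPKM, near its control HDM level, and SEPT5 at 5.81 FPKM. SEPT5 had adjusted p = 0.0368, but 0.144 and 0.0641 without HDM replicate 1 or 3. AGR2, a secretory cell disulfide isomerase, was at 5.83 FPKM and then 3.01, 2.32 and 3.24 FPKM (adjusted p = 0.0428, 0.0818 without HDM replicate 1).

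Keratin genes moved in both directions. Of 15 tested, KRT6B, KRT6A and KRT5 rose (log2 0.55, 0.34 and 0.31) and KRT80, KRT81 and KRT7 fell (-0.55, -0.47 and -0.36). Of all genes tested, 1.46% rose and 0.792% fell. KRT5 and KRT6A, keratins of basal and of activated epithelium, were at 332 and 200.4 FPKM with PBS and at 412 ± 11.8 and 255 ± 8.15 FPKM with HDM (SD, n = 3). In the PBS library with LY96 siRNA KRT5 was at 440 FPKM, above its control HDM mean. KRT81 was at 29.1 FPKM there, near its control HDM mean of 28.2 FPKM. KRT7, a keratin of simple epithelium, was at 236 FPKM and then 186, 186 and 179 FPKM (log2 -0.36 ± 0.040 SE, adjusted p = 0.00708). Other basal keratins did not pass, with KRT15 below PBS in every HDM library (log2 -0.25), KRT14 above it (0.073) and KRT17 overlapping. KRT8 and KRT18, simple epithelial keratins, lay below PBS without passing (log2 -0.15 and -0.13). KRT81 had adjusted p = 0.0832 and 0.122 without HDM replicate 2 or 3. In bulk RNA, fewer cells of a kind and less RNA per cell cannot be told apart. TP63, the master regulator of basal cells, was at 15.1 FPKM with PBS and 21.6, 21.9 and 20.6 FPKM with HDM (log2 0.47 ± 0.058 SE, adjusted p = 0.0114). ELF3, a transcription factor of the simple epithelial list, was at 4.61 FPKM and then 11.6, 10.97 and 10.995 FPKM (log2 1.12 ± 0.069 SE, adjusted p = 0.000538). The basal marker list summed to 1834 FPKM with PBS and 1903 to 2023 FPKM with HDM, and the simple epithelial list to 1009.6 FPKM and 892 to 928 FPKM. Gene by gene, 3 of 8 tested basal markers rose and none fell (median log2 0.12). Of 8 simple epithelial markers ELF3 rose and KRT7 fell (median log2 0.0057). In that list 3 members lay above PBS in every HDM library and 3 below. The part of these lists in the keratin differences was not tested.

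A small number of differentiation and surface genes passed. Of 28 cornification genes none rose and 2 fell, against 0.792% of all genes tested that fell. The 2 were KLK7, a protease of the shedding epidermis (log2 -0.50), and S100P (-0.79). KLK7 was at 15.5 FPKM with control PBS and averaged 10.6 FPKM with HDM, but was at 7.73 FPKM in the PBS library with LY96 siRNA. For S100P these values were 38.5, 21.9 and 23.5 FPKM. Below PBS in every HDM library lay 29.3% of all genes tested and 17 of the 28 cornification genes (list median log2 -0.20). Without HDM replicate 1, 5 of these genes fell and 1, SPRR2A, rose. Of 10 EGF receptor pathway genes, the receptor EGFR (log2 0.42) and its ligand AREG (0.59) rose, against 1.46% of all genes tested. EGFR was at 20.5 FPKM with control PBS, averaged 27.8 FPKM with HDM and was at 28.8 FPKM in the PBS library with LY96 siRNA. AREG was at 7.99, 12.5 and 10.4 FPKM in the same order. Of 16 tested genes of the tight and adherens junction list, which does not hold CLDN11, only CLDN1 passed (log2 0.39, adjusted p = 0.00742), rising from 52.2 to 68.5 ± 1.37 FPKM (SD, n = 3). CLDN1 was at 62.9 FPKM in the PBS library with LY96 siRNA.

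Other signalling, enzyme and metabolic lists held between 0 and 3 calls each. The share over all genes tested was 1.46% rising and 0.792% falling. Of 16 immediate-early factor genes JUNB and EGR1, both targets of growth factor and stress kinases, rose and none fell. EGR1 was at 27.3 FPKM with PBS and 39.1, 37.2 and 38.4 FPKM with HDM (log2 0.47, adjusted p = 0.00589), and JUNB differed by 0.46 on the log2 scale, whereas the values of FOS and JUN overlapped. DUSP1, a phosphatase that shuts off MAP kinases, was the only 1 of 14 MAP kinase phosphatase and Sprouty genes to pass, and it fell by 0.37 on the log2 scale but had adjusted p = 0.0539 to 0.0908 when single HDM libraries were left out. TIMP3, an inhibitor of matrix metalloproteinases, fell by 0.58 and was the only 1 of 8 metalloproteinase and TIMP genes to pass, with adjusted p = 0.0724 and 0.0597 without HDM replicate 2 or 3. None of 10 clade B serpin genes and none of 6 prostaglandin genes passed. Of 27 glycolysis and hypoxia genes HK2 and ALDOC rose and SLC2A3 fell, and none passed without HDM replicate 2. Of 8 aryl hydrocarbon receptor targets CYP1B1 rose (log2 0.48) and CYP4B1 fell.

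Housekeeping groups had few calls. Of 49 cytosolic ribosomal protein genes 1 fell (RPS7, log2 -0.18) and none rose, against 0.792% and 1.46% of all genes tested. However, 40 lay below PBS in every HDM library, against 29.3% of all genes tested, with a median log2 difference of -0.061. Of 31 cell cycle genes 1 rose (MKI67, log2 0.26) and none fell, and neither RPS7 nor MKI67 passed when any single HDM library was left out (adjusted p = 0.0773 to 0.0947 and 0.0832 to 0.0965). None of 22 complex I subunit genes and none of 18 p53 targets passed. Sterol and fatty acid synthesis genes leaned upward, with 24 of 28 above PBS in every HDM library, against 33.7% of all genes tested. Of the 28, 3 were called, ACLY among them. HMGCS1, the enzyme that opens the mevalonate pathway, was the one to pass in every fit with an HDM library left out. It was at 65.9 FPKM with PBS and 88.4, 89.7 and 85.4 FPKM with HDM (log2 0.41, adjusted p = 0.0062).

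Whether the response under control siRNA differed from that under LY96 siRNA was tested as an interaction over all 8 libraries and 12604 genes. LY96 was listed at 0 in all 8 libraries, so its knockdown could not be checked. In 7 genes (0.0555%) the HDM response was higher with LY96 siRNA and in none lower, at an adjusted p below 0.05 in limma, and 956 genes had an unadjusted p below 0.05. Of the 283 genes of this table called with control siRNA, 2 differed, SOD2 and STC2. SOD2 rose by 1.34 with control siRNA and by 1.95 with LY96 siRNA on the log2 scale (difference 0.61 ± 0.075 SE, adjusted p = 0.043), going from 32.5 to 129 ± 4.23 FPKM (SD, n = 3) with the latter. For CXCL1 the difference was 0.92 ± 0.26 SE (adjusted p = 0.516) and for CXCL8 1.19 ± 0.18 SE (adjusted p = 0.0889). For CCL2, C3 and IL32 it was 0.21 ± 0.12, 0.084 ± 0.14 and -0.14 ± 0.14 SE. A p that misses the threshold does not show equal responses, and the standard errors set what could be seen. The count of 7 ran from 0 to 31 when single HDM libraries were left out, reaching 0 when control HDM replicate 1 was dropped and 31 when LY96 HDM replicate 2 was.

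**Figure D5:**
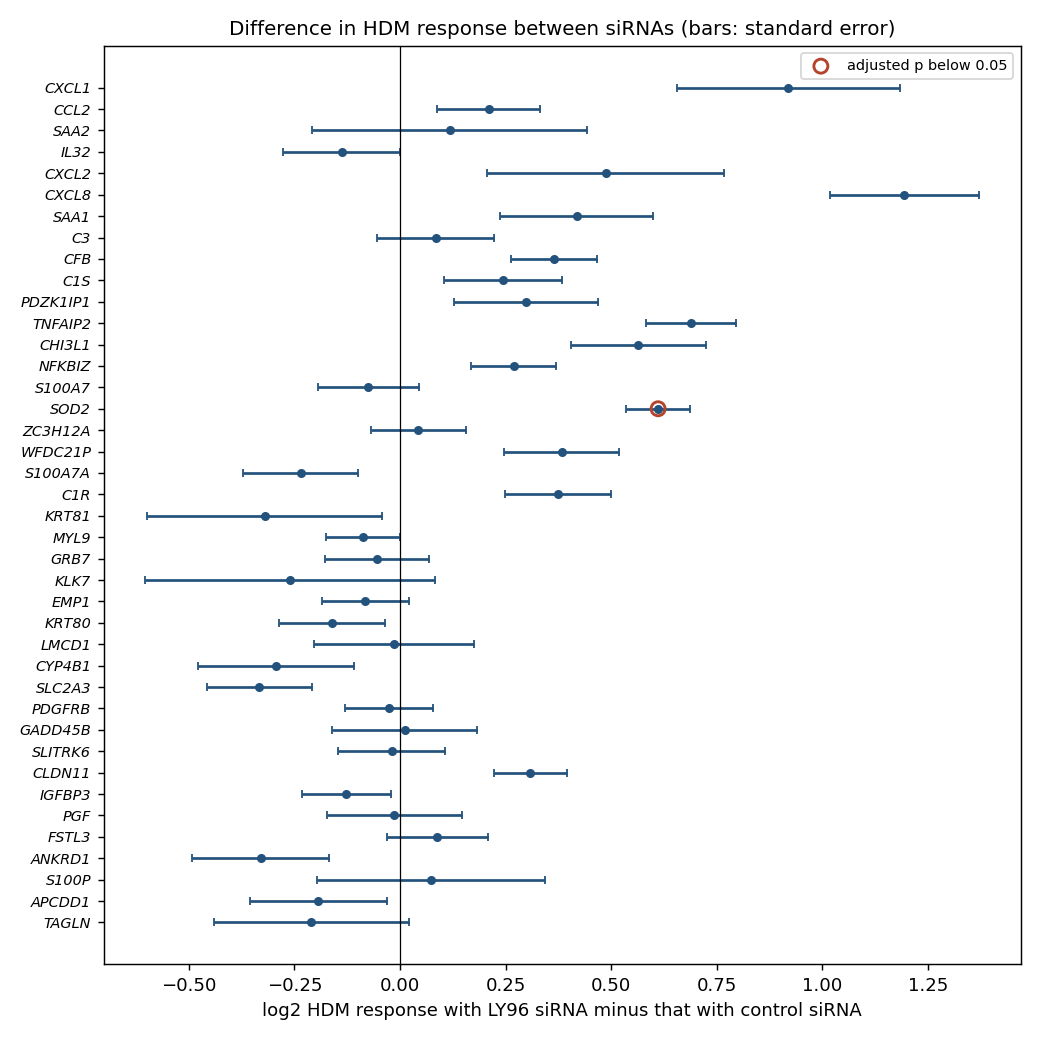
Difference in HDM response, LY96 siRNA minus control siRNA (log2, x axis; bars are 1 standard error from the fit over 8 libraries) for the 20 largest rises and 20 largest falls with control siRNA. SOD2, at 0.61, is the sole one of these 40 genes past an adjusted p of 0.05 (ringed); CXCL8 lies farthest right at 1.19 with adjusted p = 0.0889.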

How the data were processed

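Total RNA of BEAS-2b cells was sequenced in 8 libraries, of which the 4 with control siRNA were compared here. The deposited tables hold FPKM per gene symbol for each library, a unit read from the values because no header names it. The submitters' processing notes name HISAT2 2.2.0, a read aligner, and the genome build hg38. What produced the FPKM values, and from which annotation, is not given in the sources used here. No steps of whole reads were found in the values, so depth is unknown and no counting interval can be given.

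From these values log2(FPKM + 1) was computed for the 12629 genes averaging 1 FPKM or more across the 4 libraries. HDM was compared with PBS in limma 3.58.1 (R 4.3.3) with trend and robust moderation, 2 residual degrees of freedom, two-sided tests, Benjamini-Hochberg adjustment over all tested genes and a threshold of 0.05. "Rose" and "fell" are used only of genes past that threshold. The difference in response between siRNAs was a contrast of 4 group means over 8 libraries with 4 residual degrees of freedom, for 12604 genes averaging 1 FPKM or more across them. The procedure was tested on simulated data in which the PBS library was given the spread of the HDM triplicate. Such data cannot test whether PBS libraries vary as HDM libraries do. Groups were taken from the sample labels.

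The rule for naming genes took the 20 largest rises and the 20 largest falls at a mean of 5 FPKM or more, the 10 largest of each below it, up to 4 members per gene list, and a short list of HDM-related genes. Other genes named, the motifs and the sums of near-copies were chosen after their values were seen. The comparison and the 53 gene lists were chosen with earlier results of these data known. Alternatives covered the pseudocount, the filter, the scaling, the moderation, the libraries fitted and each HDM replicate left out. Promoter sequences are from RefSeq (GRCh38.p14), matched by gene symbol. Python 3.11.15 and matplotlib 3.10.9 were used for tables and plots. Some list members are counted but not reported here by name.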

Additional observations from a re-analysis of the deposited data

Results flagged for a closer look

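The HDM response differed between the siRNAs in 7 genes by the interaction test in limma, each higher with LY96 siRNA. Knockdown of LY96 could not be checked, because it was listed at 0 in every library. The adjusted p-values sit close to the threshold, and none of the 7 passed in all 8 alternative fits. SOD2 and STC2 rose with control siRNA, PTX3 was below the tested level there, and the other members did not pass there.

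SLC7A11, the cystine transporter gene, had a difference of 1.76 ± 0.17 SE (adjusted p = 0.0384, 0.0106 to 0.0681 over the alternatives, 6 of 8 past the threshold). DDIT3, the stress transcription factor CHOP, had 1.39 ± 0.15 SE (adjusted p = 0.043, 0.0102 to 0.0878, 4 of 8). STC2, a secreted glycoprotein gene, had 1.21 ± 0.14 SE (adjusted p = 0.043, 0.0102 to 0.113, 4 of 8). All 3 are genes of the integrated stress response. MTHFD2, a mitochondrial folate enzyme gene, had 1.01 ± 0.11 SE (adjusted p = 0.043, 0.00501 to 0.133, 4 of 8). ATF4, the master factor of that response, had 0.80 ± 0.094 SE (adjusted p = 0.043, 0.013 to 0.0878, 3 of 8). SOD2 had 0.61 ± 0.075 SE (adjusted p = 0.043, 0.0235 to 0.0878, 3 of 8). PTX3, a soluble pattern recognition protein gene, had 1.96 ± 0.25 SE (adjusted p = 0.0467, 0.0157 to 0.132, 2 of 8).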

How the results depend on the processing

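No paired analysis was possible because each siRNA has a single PBS library with no replicate number. Rises and falls numbered 165 to 206 and 92 to 119 under pseudocounts of 0.1 and 0.5, a filter at a mean of 5 FPKM, median-ratio scaling, quantile normalization and a fit to all 8 libraries, against 185 and 100. Median-ratio scaling and quantile normalization moved the median of all genes to 0.0006 and -0.003. Without a filter on low values 33 rose and 15 fell, and 38 of the 285 called genes kept their call. Without trend and robust moderation 63 rose and 13 fell, and 75 kept it. Leaving out single HDM libraries gave 102 to 146 rises and 45 to 79 falls. No called gene changed sign under any of these alternatives. The 7 genes with a higher response under LY96 siRNA became 14 under quantile normalization, 6 under a pseudocount of 0.1 and 0 to 31 when single libraries were left out. Genes with a lower response became 0 to 2 in those fits. The cause of these shifts was not tested. Depth is unknown, so low genes such as IL6 and CXCL6 carry no counting interval.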

Other observations

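Outside the gene lists, several well-expressed genes passed in every fit that left out an HDM library; they were chosen after their values were seen. IFNGR1, a chain of the interferon-gamma receptor, was at 21.9 FPKM with PBS and 44.2, 44.2 and 40.9 FPKM with HDM (log2 0.95 ± 0.059 SE, limma adjusted p = 0.000581). PDZK1IP1, a small membrane protein gene, was at 12.1 FPKM and then 42.9, 47.4 and 41.4 FPKM (log2 1.78). WFDC2, a secreted protein of the whey acidic protein family, was at 15.2 FPKM and then 35.002, 33.7 and 31.8 FPKM (log2 1.09). CEBPD, a transcription factor of the acute-phase response, was at 28.2 FPKM and then 52.6, 55.5 and 50.95 FPKM (log2 0.88). In all of these the HDM libraries lay far above the PBS library. SGPP2, a sphingosine-phosphate phosphatase gene, rose by 1.20, the lysosomal protein gene DRAM1 by 1.08 and NNMT, a nicotinamide methyltransferase gene, by 0.87 on the log2 scale. CAV1, which coats caveolae, fell from 189.6 to 140.2 ± 2.98 FPKM (SD, n = 3), and CD24, a surface glycoprotein gene, from 183 to 142 ± 2.39 FPKM.

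Some calls fell on genes that share sequence or overlap another gene, and sums over the copies differed from the single values. MIR4444-1 was called lower, but MIR4444-1 and MIR4444-2 together were at 9.92 FPKM with PBS and 8.94, 10.8 and 11.6 FPKM with HDM, which overlap. The pseudogenes NUDT4P1 and NUDT4P2 summed to 9.65 FPKM and then 10.1, 9.13 and 10.1 FPKM, which overlap too. DNAJC25-GNG10 was called higher from a listed 0, yet with GNG10 it summed to 31.3 FPKM with PBS and 32.1, 32.8 and 28.8 FPKM with HDM. NEDD8-MDP1 was called lower to a listed 0, and with NEDD8 it summed to 160.1 FPKM and then 154, 150.1 and 149 FPKM.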
